A study of Mus musculus with 12 samples.

Results

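The 9 genes described here encode the enzymes and binding proteins that place, copy, remove and read methyl groups on cytosine in DNA. They are Dnmt1, Dnmt3a, Dnmt3b, Uhrf1, Tet1, Tet2, Tet3, Mbd2 and Tdg. They were chosen by name from the 48709 genes of the count files, and all 9 were among the 18847 genes that passed the filter on low counts (5 or more counts in no fewer than 6 of the 12 libraries). The choice used no measured value, although earlier results of these data were known when it was made.

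RNA was sequenced from 12 mouse primary hippocampal cultures, prepared from CD1 embryos of embryonic day 17. All cultures received lipid nanoparticles together with apolipoprotein E4 on day 10 in vitro and were harvested on day 12, after 48 h. The nanoparticles held either a miR-148a-3p mimic (the mimic group, n = 6) or a negative control oligonucleotide (the control group, n = 6), and no untreated culture is among them. Embryos were pooled for each preparation and the sources do not say whether the 6 samples of a group came from separate preparations, so p-values measure the spread between these samples, which may be technical.

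The label calls the cells neurons. All 7 neuron markers fixed for the check (among them Map2, Rbfox3 and Snap25) were present, with a summed level of 5811 to 6489 CPM in control, but so were all 7 astrocyte markers, with 4812 to 5300 CPM. CPM are counts per 1000000 counts of a library, after scaling between libraries. These bulk samples therefore held neurons and glia, and in them fewer cells of a type and less RNA per cell cannot be told apart. Libraries held 20018234 to 37149112 counts. The shallowest 2, control replicate 1 (20018234 counts) and control replicate 2 (23097094 counts), are named below wherever they decide a value, and control replicate 1 alone was set apart on the second principal component of all tested genes (18.9% of the variance). Mature microRNAs are not captured by poly(A) libraries, so uptake of the mimic was not measured.

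In mammals, DNA methylation is placed mostly on cytosines followed by guanine. Dnmt3a and Dnmt3b are the de novo methyltransferases, which methylate sites bare on both strands. When DNA is copied, Uhrf1 binds the hemimethylated site and brings Dnmt1, which methylates the new strand. Tet1, Tet2 and Tet3 oxidise 5-methylcytosine, and the glycosylase Tdg cuts out the later oxidation products so that base excision repair can restore cytosine. Mbd2 binds methylated DNA and brings the NuRD repressor complex. Neurons no longer divide, but they keep high levels of Dnmt3a and of oxidised methylcytosine, and Dnmt1 and Dnmt3b are known targets of miR-148a.

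The question put to these genes was whether raising miR-148a-3p changed the machinery of DNA methylation. The strand of the mimic that enters the silencing complex is shown first, because its seed (bases 2 to 8, in capitals) decides which transcripts it can pair with. It was identical to the mature mmu-miR-148a-3p of RefSeq. The sequence given for the negative control in the reagent list follows it. The series design text calls the control a siRNA, so that this sequence was the one used rests on the reagent list.

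miR-148a-3p mimic: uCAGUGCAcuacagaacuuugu

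negative control: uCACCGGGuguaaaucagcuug

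Matches to the mimic's seed in the transcripts of the 9 genes are shown next, each in 30 bases of the sense strand with the match in capitals. An 8-base site pairs with bases 2 to 8 and has an A opposite base 1, and a 7-base site has one end less. Dnmt1 and Uhrf1 each held a single 8-base site in the 3 prime untranslated region (UTR), and Tdg held 2 overlapping 7-base sites. The sites lay at chr9:20907491-20907498 (Dnmt1, minus strand), chr17:56323115-56323122 (Uhrf1, plus strand), chr10:82649976-82649982 and chr10:82649981-82649987 (Tdg, plus strand) on mm10.

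Dnmt1 3 prime UTR: agagccccacgTGCACTGAtgtttttaacc

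Uhrf1 3 prime UTR: ttttcagagagTGCACTGActgggtgtcat

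Tdg 3 prime UTR, first site: tatttggaaggTGCACTGcactgctgttta

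Tdg 3 prime UTR, second site: ggaaggtgcacTGCACTGctgtttacatgg

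Dnmt3a and Dnmt3b had no site in the 3 prime UTR, but each held an 8-base site in the coding sequence. The coding sites lay at chr12:3906867-3906874 (Dnmt3a, plus strand) and chr2:153684461-153684468 (Dnmt3b, plus strand). Both began 159 bases before the end of the coding sequence, stop codon included, and the shown windows were identical at 23 of 30 bases.

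Dnmt3a coding sequence: acatcctgtggTGCACTGAaatggaaaggg

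Dnmt3b coding sequence: acgttttgtggTGCACTGAgctcgaaagga

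Weaker matches in coding sequence were 1 7-base site in Uhrf1, 2 in Tet3 and 1 in Mbd2. Tet1 and Tet2 held no match in either region. The seed of the negative control matched 7 bases in the 3 prime UTRs of Dnmt3a, Dnmt3b and Tet3. In coding sequence it had an 8-base site in Mbd2 and a 7-base site in Uhrf1. Such matches are common: of 15072 tested genes with an annotated 3 prime UTR, 21.9% held a mimic site there, 4.13% an 8-base mimic site and 4.42% a site for the negative control, and 24.8% held a mimic site in the coding sequence. A match describes the sequence and does not show that the site is used.

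Of the 9 genes, 4 were higher in mimic than in control (Uhrf1, Tet1, Mbd2 and Tet3) and 0 were lower, by edgeR's quasi-likelihood test with Benjamini-Hochberg adjustment over all tested genes and a threshold of 0.05. Across all tested genes 22.2% were called, 11.5% higher and 10.7% lower. At an unadjusted p under 0.05, 0 of the 9 genes were lower, and DESeq2 and limma-voom also called 0 lower and 4 higher. The levels of the groups did not overlap for 3 of the 9 genes, all higher in mimic, against 13.3% of all tested genes, 7.43% higher and 5.83% lower in mimic. The median log2 fold change (log2 change, below) was 0.07 over the 9 genes and -0.01 over all tested genes.

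**Figure D1:**
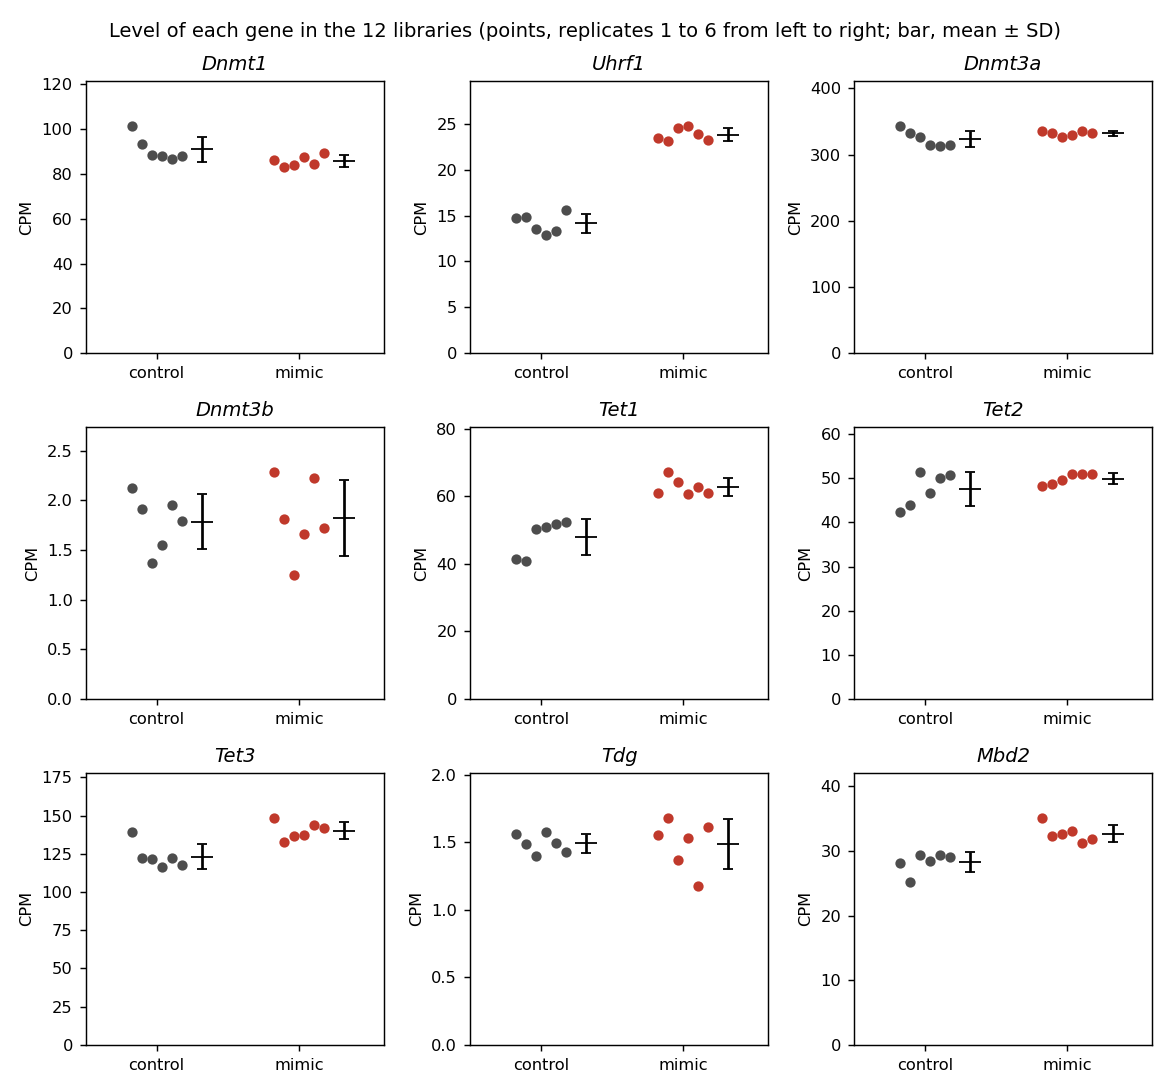
Level of each of the 9 genes (vertical axes, CPM, starting at 0) in the 6 control and 6 mimic libraries; points are libraries and the bar beside them is the mean ± SD. Uhrf1, Tet1 and Mbd2 separate the groups fully, Tet3 separates them except for control replicate 1 at 139.0 CPM, and the other 5 genes overlap.

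**Figure D2:**
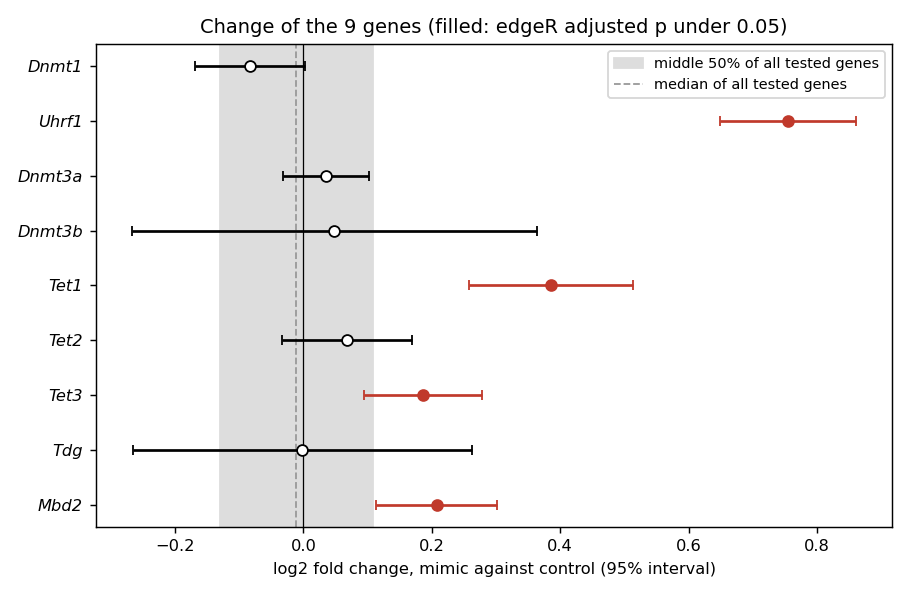
Log2 fold change of mimic against control (horizontal axis) with its 95% interval for each gene; filled points passed an edgeR adjusted p of 0.05, the grey band spans the middle 50% of all tested genes and the dashed line is their median. Uhrf1 lies at 0.76, Tet1 at 0.39, Mbd2 at 0.21 and Tet3 at 0.19, and the intervals of the other 5 genes include 0.

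The largest change among the 9 genes was in the maintenance machinery, where Uhrf1 rose and its partner Dnmt1 did not. Uhrf1 (chr17:56303321-56323486, plus strand) encodes the protein that finds hemimethylated DNA behind the replication fork. Its level ranged from 12.9 to 15.6 CPM in control, with a median of 14.1, and from 23.1 to 24.7 CPM in mimic, with a median of 23.7. Every mimic library lay above every control library. The means were 14.2 ± 1.02 CPM (SD, n = 6) and 23.8 ± 0.695 CPM (SD, n = 6), a log2 change of 0.76 (SE 0.05, 95% interval 0.65 to 0.86, edgeR adjusted p = 8.99e-09), or 1.69-fold. Of all tested genes, 397 had a log2 fold change at least as large. Genes with a seed site like that of Uhrf1 were called lower more often than higher. Among the 623 tested genes with an 8-base mimic site in the 3 prime UTR, 52 were called higher and 180 lower, the median log2 fold change was -0.07, and 7 of them, Uhrf1 included, reached its value. Of the 50-base windows of the Uhrf1 transcript, 18.9% also occur in other genes, chiefly the pseudogene Gm5648, which itself held 0 to 2 counts a library.

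Dnmt1 (chr9:20907209-20959888, minus strand) encodes the enzyme that copies methylation onto the new strand. It ranged from 86.7 to 101.2 CPM in control, with a median of 88.2, and from 82.9 to 89.6 CPM in mimic, with a median of 85.4. The groups overlapped, although all 6 mimic libraries lay below the control mean and 4 of them below the lowest control library. The means were 91.0 ± 5.57 CPM (SD, n = 6) and 85.8 ± 2.51 CPM (SD, n = 6), a log2 change of -0.08 (SE 0.04, edgeR adjusted p = 0.166). The gene carried a mean of 2623 counts, and its 95% interval ran from -0.17 to 0.0024, that is from 0.890 to 1.00 of the control level. The control mean leaned on the 2 shallowest libraries, control replicates 1 and 2, with 101.2 and 93.6 CPM against 86.7 to 88.4 CPM in the other 4. Without control replicate 1 the log2 fold change was -0.05 (edgeR adjusted p = 0.261), and without both it was -0.03 (edgeR adjusted p = 0.433). Among the 623 tested genes with an 8-base site, 291 had a log2 fold change as low as that of Dnmt1 or lower.

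Because Uhrf1 and Dnmt1 act as a pair, their balance was compared within each library, where it does not depend on the scaling between libraries. Uhrf1 counts were 14.5 to 17.7% of Dnmt1 counts in control and 26.0 to 29.3% in mimic. The ranges were far apart. The ratio was 1.79-fold higher in mimic, a log2 difference of 0.84 (two-sided exact permutation test over all relabellings of 6 against 6, p = 0.00216, the smallest they can give, adjusted p = 0.00866 over the 4 ratios tested). This is a ratio of counts and not of molecules, since the transcripts differ in length. Uhrf1 alone already separated the groups and Dnmt1 changed little, so the ratio is not a result apart from that of Uhrf1.

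Uhrf1 is transcribed mainly in dividing cells, while Dnmt1 is also found in neurons that no longer divide, so markers of division are given beside them. Of 14 such markers, 13 were called higher in mimic and 0 lower (edgeR), with a median log2 fold change of 0.95, and the groups did not overlap for these 13. Their summed level was 358 to 402 CPM in control and 635 to 683 CPM in mimic. Mki67, the proliferation antigen, had a log2 change of 0.97 (SE 0.05, edgeR adjusted p = 7.40e-10) and Mcm5, a subunit of the replicative helicase, one of 0.99 (SE 0.05, edgeR adjusted p = 5.53e-10). E2f1, a transcription factor of the G1 to S transition, was the marker not called, at 0.03 (SE 0.05, edgeR adjusted p = 0.804). The log2 fold change of Uhrf1 lay within this list, with 8 of the 14 markers above it, whereas that of Dnmt1 lay below all 14. The part of dividing cells in the Uhrf1 result was not tested.

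**Figure D3:**
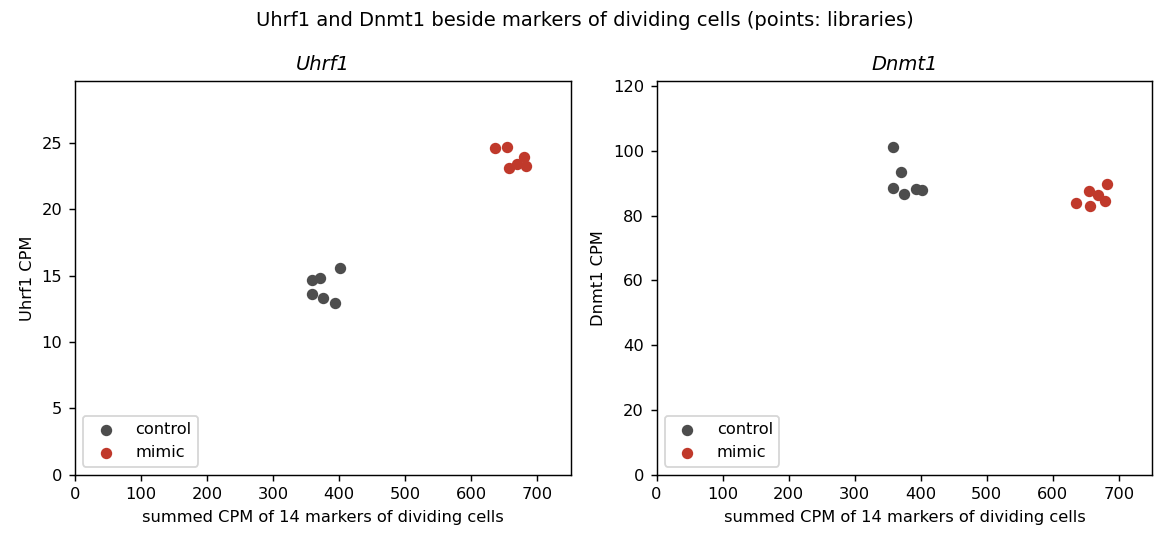
Level of Uhrf1 (left) and Dnmt1 (right) in CPM against the summed CPM of 14 markers of dividing cells, with 1 point per library. For Uhrf1 the mimic libraries sit above and to the right of all control libraries, while for Dnmt1 they sit to the right, between 82.9 and 89.6 CPM, with 4 of 6 under the lowest control library.

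The promoters of the pair were searched for E2F-like words, since E2F factors drive many genes of the S phase. The words TTTCCCGC, TTTCGCGC, TTTGCCGC and TTTGGCGC were sought on both strands from 250 bases before to 50 after each start site of RefSeq (GRCm38.p6), which held promoters for 8 of the 9 genes. These words were chosen with the results known. At least 1 word was present in 2.26% of 32851 promoters, in 1 of 2 promoters of Uhrf1 (chr17:56304063-56304362, plus strand) and in 1 of 3 of Dnmt1 (chr9:20952574-20952873, minus strand), and in none of the other 6 genes. The first Dnmt1 match begins at position -219 from the start site and reads TTTCGCGC on the opposite strand, a further one, TTTGGCGC, lies at position 33 without overlapping it, and the Uhrf1 match begins at position -185. A match describes the letters and not a bound factor. The TTTCGCGC match of each promoter is shown in capitals.

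Uhrf1 promoter: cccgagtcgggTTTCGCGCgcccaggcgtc

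Dnmt1 promoter: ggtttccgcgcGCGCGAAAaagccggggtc

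The de novo methyltransferases did not pass the test. Dnmt3a (chr12:3806007-3914443, plus strand), the main de novo enzyme of neurons, ranged from 313.1 to 342.6 CPM in control, with a median of 320.6, and from 326.1 to 336.0 CPM in mimic, with a median of 332.4. The mimic libraries lay inside the control range. The log2 fold change was 0.04 (SE 0.03, 95% interval -0.03 to 0.10, edgeR adjusted p = 0.482) at a mean of 9771 counts, so a change of more than 1.07-fold upward lies outside the interval. As with Dnmt1, control replicates 1 and 2 were the highest of their group. Without both, the log2 fold change was 0.07 (edgeR adjusted p = 0.0398) and Dnmt3a passed the threshold, which made 5 of the 9 genes higher. Calls rose over all genes as well in this comparison, from 2163 to 3058 higher and from 2019 to 2892 lower.

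Dnmt3b (chr2:153649450-153687730, plus strand), the de novo enzyme of early development, was close to the limit of these libraries, with 42 to 69 counts each. It ranged from 1.37 to 2.12 CPM in control, with a median of 1.85, and from 1.25 to 2.28 CPM in mimic, with a median of 1.77. The mimic libraries spread over a wider range than the control libraries and covered it. The log2 fold change was 0.05 (SE 0.15, 95% interval -0.27 to 0.36, edgeR adjusted p = 0.869). The interval runs from 0.831 of the control level to 1.29-fold and is not a limit of detection. A Dnmt3b change inside it cannot be told from none at this depth. Leaving out single libraries moved the value between -0.03 and 0.14, below 0 without control replicate 3 (-0.03), mimic replicate 1 (-0.03) or mimic replicate 5 (-0.01). Of its 50-base windows, 11.5% are shared with Dnmt3c, the rodent paralog of the male germ line, which held 6 to 12 counts a library, so a few reads could not be told apart. The log2 ratio of Dnmt3b to Dnmt3a counts was -7.89 to -7.32 in control and -8.03 to -7.20 in mimic, and it did not pass the test (log2 difference -0.02, two-sided exact permutation test, p = 0.916). The sign of that ratio also turned on single libraries, with a range of -0.09 to 0.08.

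Among the erasers, Tet1 and Tet3 rose, and neither holds a seed site in its 3 prime UTR. Tet1 (chr10:62804570-62908996, minus strand) encodes a dioxygenase with a CXXC domain that binds DNA rich in CpG. It ranged from 40.8 to 52.2 CPM in control, with a median of 50.6, and from 60.7 to 67.1 CPM in mimic, with a median of 61.8. The groups did not overlap, and within control, replicates 1 and 2 stood low at 41.4 and 40.8 CPM against 50.3 to 52.2 CPM in the other 4. The means were 47.9 ± 5.30 CPM (SD, n = 6) and 62.7 ± 2.52 CPM (SD, n = 6), a log2 change of 0.39 (SE 0.06, 95% interval 0.26 to 0.51, edgeR adjusted p = 0.000152), or 1.31-fold. Without control replicates 1 and 2 it was 0.29 (edgeR adjusted p = 4.06e-07).

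Tet3 (chr6:83362373-83459084, minus strand), the Tet transcript with the highest level per length in these cultures, ranged from 116.5 to 139.0 CPM in control, with a median of 121.8, and from 132.7 to 148.4 CPM in mimic, with a median of 139.6. The groups overlapped through control replicate 1 alone, at 139.0 CPM, since the other 5 control libraries reached no more than 122.4 CPM. The means were 123 ± 8.16 CPM (SD, n = 6) and 140 ± 5.66 CPM (SD, n = 6). The log2 fold change was 0.19 (SE 0.04, 95% interval 0.09 to 0.28, edgeR adjusted p = 0.00441), or 1.14-fold, and 0.22 without control replicate 1 (edgeR adjusted p = 2.44e-05).

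Tet2 (chr3:133463679-133545139, minus strand), which lacks a CXXC domain of its own, did not pass the test. It ranged from 42.3 to 51.4 CPM in control, with a median of 48.4, and from 48.2 to 51.0 CPM in mimic, with a median of 50.3. The mimic libraries lay within the control range. The log2 fold change was 0.07 (SE 0.05, 95% interval -0.03 to 0.17, edgeR adjusted p = 0.358) and 0.01 without control replicates 1 and 2 (edgeR adjusted p = 0.928), which were again the lowest of their group at 42.3 and 43.9 CPM.

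Neither of the balances compared within the Tet family passed the test with all 12 libraries. Tet1 counts were 29.7 to 44.5% of Tet3 counts in control and 41.1 to 50.6% in mimic, a log2 difference of 0.21 that did not pass the test (two-sided exact permutation test, p = 0.0801, adjusted p = 0.160). Without control replicate 1 the log2 difference was 0.13 and without replicates 1 and 2 of control 0.06 (exact permutation test, adjusted p = 0.214 and 0.470). Tet2 counts were 30.4 to 43.1% of Tet3 counts in control and 32.5 to 37.1% in mimic, a log2 difference of -0.11 (two-sided exact permutation test, p = 0.216, adjusted p = 0.289). This ratio turned on 1 library: without control replicate 1 the log2 difference was -0.18 and passed the threshold (exact permutation test, adjusted p = 0.0433). That Tet1 rose by more than Tet3 was therefore not shown.

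Tdg (chr10:82629828-82650799, plus strand), the glycosylase that acts after the Tet enzymes, held 31 to 52 counts a library. It ranged from 1.40 to 1.58 CPM in control, with a median of 1.49, and from 1.18 to 1.68 CPM in mimic, with a median of 1.54. The mimic libraries covered the control range on both sides. The log2 fold change was -0.0017 (SE 0.13, 95% interval -0.27 to 0.26, edgeR adjusted p = 0.9998). A Tdg change inside that interval cannot be told from none at this depth. Its 2 overlapping seed sites in the 3 prime UTR were thus not accompanied by a measurable change. The count is also uncertain in itself, since 66.3% of the 50-base windows of Tdg occur in other genes, chiefly the pseudogene Tdg-ps (0 to 2 counts), and 367 exonic bases overlap Glt8d2 on the opposite strand, a gene with a mean of 54.3 counts.

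Mbd2 (chr18:70568189-70626131, plus strand), the reader among the 9 genes, rose slightly. It ranged from 25.2 to 29.4 CPM in control, with a median of 28.7, and from 31.2 to 35.1 CPM in mimic, with a median of 32.5. The groups did not overlap. The means were 28.3 ± 1.58 CPM (SD, n = 6) and 32.7 ± 1.36 CPM (SD, n = 6), a log2 change of 0.21 (SE 0.04, 95% interval 0.11 to 0.30, edgeR adjusted p = 0.00239), or 1.15-fold. Without control replicates 1 and 2 it was 0.17 (edgeR adjusted p = 0.00147).

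Levels of different genes were compared per length, as CPM per kilobase of the union of a gene's exons. In control Dnmt3a had the highest level at 19.5 ± 0.740 (SD, n = 6), followed by Dnmt1 at 12.3 ± 0.755, Mbd2 at 8.79 ± 0.491 and Tet3 at 7.38 ± 0.489. Uhrf1 at 3.32 ± 0.240, Tet1 at 3.10 ± 0.343 and Tet2 at 2.82 ± 0.225 formed a middle group, and Dnmt3b at 0.349 ± 0.0543 and Tdg at 0.278 ± 0.0131 were lowest. The control ranges of neighbours in this order overlapped for Mbd2 and Tet3, for Uhrf1 and Tet1, for Tet1 and Tet2, and for Dnmt3b and Tdg. The order was the same in mimic, but there only Dnmt3b and Tdg overlapped: Uhrf1 at 5.59 ± 0.163, Tet1 at 4.06 ± 0.163 and Tet2 at 2.96 ± 0.0751 no longer did. Part of the order depends on the length used. With the longest protein-coding transcript Mbd2 (16.7) passed Dnmt1 (14.6) in mimic, Tet2 (5.18) passed Uhrf1 (3.95) and Tet1 (3.33) in control, and Tdg (0.427) passed Dnmt3b (0.413). Levels were not corrected for 50-base windows that also occur in other genes, 66.3% for Tdg, 18.9% for Uhrf1 and 11.5% for Dnmt3b. If reads with several matches were dropped, the levels of these genes are too low, which was not tested.

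**Figure D4:**
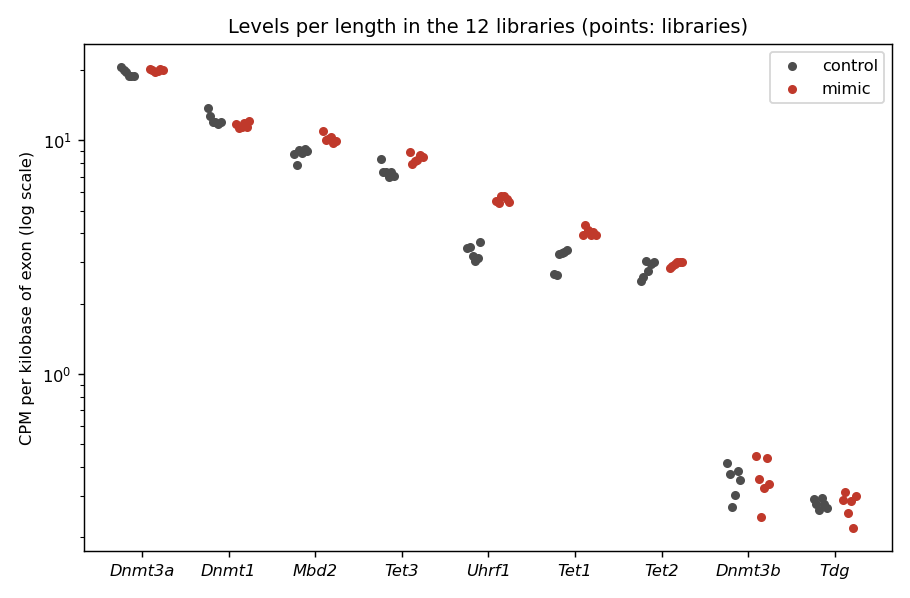
Level of each gene in CPM per kilobase of exon (vertical axis, log scale) in the control and mimic libraries, with 1 point per library and the genes ordered by their control mean. Dnmt3a is highest at a control mean of 19.5, Dnmt3b and Tdg are lowest at 0.349 and 0.278, and the mimic points of Uhrf1 and Tet1 lie above their control points.

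The other genes of the pathway were described by 5 lists, read against the 11.5% of all tested genes called higher and the 10.7% called lower. Among the maintenance partners, proteins that work with Uhrf1 and Dnmt1 or keep methylation at particular places, 7 of 9 tested genes were called higher and 1 lower, with a median log2 fold change of 0.29. Hells, the remodelling ATPase that opens chromatin for maintenance, went from a mean of 11.7 CPM in control to 18.3 CPM in mimic, a log2 change of 0.64 (SE 0.09, edgeR adjusted p = 7.37e-05). Its activator Cdca7 stood at 0.60 (SE 0.07, edgeR adjusted p = 3.93e-06) and Lig1, the ligase that joins the fragments of the new strand, at 0.58 (SE 0.05, edgeR adjusted p = 1.07e-07). Zfp57, which keeps methylation at imprinted regions, was lower and went from 45.8 ± 1.37 to 40.0 ± 0.960 CPM (SD, n = 6 each), with a log2 change of -0.19 (SE 0.03, edgeR adjusted p = 0.000428). Trim28, its corepressor, was not called, and Dppa3, an inhibitor of Uhrf1 in oocytes, had no count in any library. Hells, Cdca7, Lig1 and Pcna belong to replication, so the markers of dividing cells given above move with this list as well, and their part in it was not tested.

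Among other writers and their cofactors, 2 of 7 tested genes were called higher and 0 lower (edgeR), with a median log2 fold change of 0.02. Ezh2, the methyltransferase of Polycomb for lysine 27 of histone H3, rose from 25.2 ± 2.17 to 38.6 ± 1.38 CPM (SD, n = 6 each), a log2 change of 0.61 (SE 0.05, edgeR adjusted p = 1.87e-07). Nsd1, which methylates lysine 36 of histone H3 in a form that Dnmt3a binds, stood at 0.13 (SE 0.04, edgeR adjusted p = 0.0190). Dnmt3l, the partner of Dnmt3a and Dnmt3b in germ cells, failed the filter at a mean of 1.58 counts.

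The readers beside Mbd2 were mostly not called, with 1 of 12 higher, 1 lower and a median log2 fold change of 0.0037. Chd4, the ATPase of the NuRD complex that Mbd2 recruits, was higher at 0.16 (SE 0.04, edgeR adjusted p = 0.00479), whereas the NuRD subunits Mbd3 at 0.12, Gatad2a at 0.04 and Gatad2b at 0.01 were not called. Dnmt1 and Uhrf1 are on the study's list of predicted miR-148a targets, and so are Usp7 (0.13, called higher), Nsd1 and Gatad2b.

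Of 17 tested partners of the erasers and genes of base excision repair, 6 were called higher and 1 lower, with a median of 0.05. Neil3, a glycosylase found in dividing cells, had the largest change of the list, from 3.39 ± 0.475 to 6.99 ± 0.345 CPM (SD, n = 6 each), a log2 change of 1.03 (SE 0.08, edgeR adjusted p = 9.59e-08). Ung, which removes uracil from DNA, stood at 0.60 (SE 0.08, edgeR adjusted p = 1.68e-05) and Gadd45g, a stress protein linked to demethylation, at 0.34 (SE 0.07, edgeR adjusted p = 0.00148). Smug1, another uracil glycosylase, was lower at -0.21 (SE 0.06, edgeR adjusted p = 0.0127). Ogt, the sugar transferase that binds Tet proteins, stood at 0.01 and Apex1 at -0.03, and neither was called.

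In the supply of methyl donors, 4 of 10 tested genes were called higher and 0 lower (edgeR), with a median of 0.07. Shmt2 and Shmt1, which feed carbon units from serine into the folate cycle, stood at 0.36 (SE 0.07, edgeR adjusted p = 0.000804) and 0.30 (SE 0.07, edgeR adjusted p = 0.00475). Ahcyl1, a relative of S-adenosylhomocysteine hydrolase, rose from 273 ± 12.1 to 345 ± 11.6 CPM (SD, n = 6 each), a log2 change of 0.34 (SE 0.04, edgeR adjusted p = 2.77e-06). Mat2a, which makes S-adenosylmethionine, was also called, at 0.21, while Mtr, Mtrr and Ahcy were not.

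**Figure D5:**
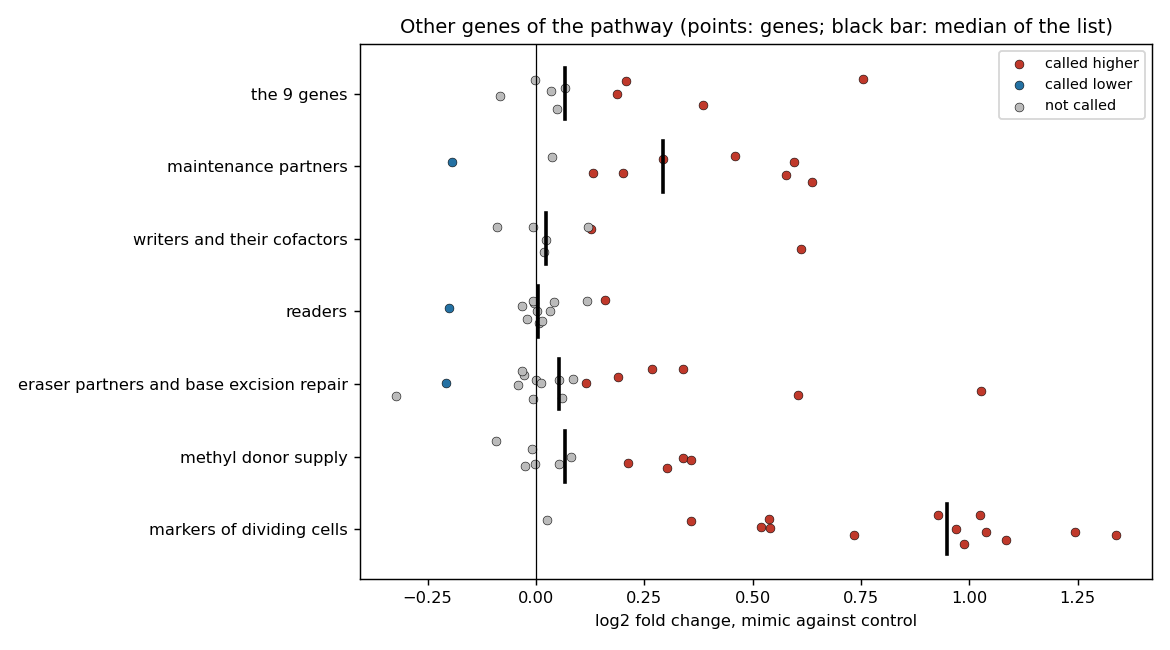
Log2 fold change of mimic against control (horizontal axis) for the tested genes of each list; points are genes, coloured by the edgeR call, and the black bar is the median of the list. The medians are 0.07 for the 9 genes, 0.29 for the maintenance partners and 0.95 for the markers of dividing cells, and between 0.0037 and 0.07 for the other 4 lists.

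Markers of the cell types that such cultures can hold moved as well, and their part in the changes of the 9 genes was not tested. Of the oligodendrocyte lineage, 5 of 7 markers were called higher and 0 lower (edgeR), with a summed level of 391 to 679 CPM in control and 766 to 961 CPM in mimic. Of 7 astrocyte markers 5 were higher and 1 lower (4812 to 5300 against 5630 to 6095 CPM), and of 5 neural progenitor markers 3 were higher and 0 lower (321 to 353 against 349 to 398 CPM). The summed levels overlapped between the groups for the neural progenitor markers and for the lists that follow. Of 7 neuron markers 1 was higher and 2 lower (5811 to 6489 against 6166 to 6534 CPM), and of 5 fibroblast and mural markers 0 were higher and 1 lower (114 to 143 against 55.3 to 140 CPM). Microglia and endothelial markers were close to absent, at 9.59 to 11.4 against 8.19 to 15.6 CPM with 1 of 7 lower, and at 0.959 to 1.44 against 0.668 to 1.36 CPM with 0 of 2 tested genes called. No marker of these 7 lists or of the dividing cells was at 0 in all libraries, though Cldn5 of the endothelial list did not pass the filter.

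Genes whose levels varied most like those of the called members between libraries of a group were sought among 12364 genes of no fewer than 100 counts on average. The measure was Pearson's r of log2 CPM over the 12 libraries after subtracting the group mean, and it is given as a description, since all points share library depth. The values named are among the highest of 12364 for each member, so they are high by selection. Uhrf1 was most like Rgs20 (r = 0.89), Asl (0.85) and Bach2 (0.81), and Mbd2 was most like Ddr2 (0.94), Jak2 (0.89) and Zfp287 (0.88). For Tet1 they were Tiparp (0.98) and Papola (0.98), and for Tet3 they were Garem2 (0.96), Notch1 (0.96) and St6galnac6 (0.96). Without control replicates 1 and 2, whose Tet1 was low, the Tet1 values were 0.90 and 0.91. In the order named, those of Uhrf1 were then 0.92, 0.84 and 0.79, and those of Mbd2 0.89, 0.74 and 0.82. Those of Tet3 were 0.90, 0.93 and 0.90.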

How the data were processed

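RNA from 6 control and 6 mimic cultures was sequenced by the authors with a TruSeq RNA v2 kit as 50 bp single-end reads. Per the submitters' processing notes, reads were checked with FastQC 0.11.5, aligned to mm10 with STAR 2.5.2b and counted with featureCounts of Subread 1.5.1. The deposited values are raw counts for 48709 Ensembl genes, summing to 20018234 to 37149112 per library. Strand setting, treatment of reads with several matches and annotation release are not given in the sources used here, so overlapping genes and paralogs can share or lose reads. A normalized table was not used. Groups and replicate numbers came from the titles.

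Genes holding 5 or more counts in 6 or more of the 12 libraries (50%) were tested with edgeR 4.0.16 (R 4.3.3; TMM scaling, robust quasi-likelihood F-test, no covariate, Benjamini-Hochberg over 18847 genes, threshold 0.05). The authors used DESeq2, and their design formula is not given in the sources used here. SE is the log2 fold change divided by the root of F, or the SE that counting alone gives where this is larger (Tdg), and intervals are 95%. CPM use TMM-scaled library sizes. The 4 ratios were tested with exact permutation tests (scipy 1.17.1). Intervals cover these libraries only. Scripts were tested on simulated counts.

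Symbols, coordinates, UTRs and coding sequences came from GENCODE M21 on GRCm38, the build of mm10, which named 48349 genes; per gene the longest annotated 3 prime UTR was searched. Shared 50-base windows are exact matches to transcripts of other genes. Members and lists were chosen with earlier results of these data known. Named were all 9 genes; per pathway list the 3 highest and 3 lowest called genes of 100 or more counts on average; Mki67, Mcm5 and E2f1; and per called member the 3 genes most correlated with it. A few genes that this rule names are not reported here. Pcna, Usp7, Trim28, Dppa3, Dnmt3l, Mbd3, Gatad2a, Gatad2b, Ogt, Apex1, Mat2a, Mtr, Mtrr, Ahcy and single markers were added after their values were seen. Alternatives were RLE scaling, DESeq2 1.42.0, limma-voom (limma 3.58.1), other filters, a replicate block, another length, a pseudocount of 0.5 for ratios, each library left out and, chosen after seeing the data, both shallow control libraries left out. Replicates of a group differed by more than sampling noise. Same-numbered libraries did not deviate together (correlations of -0.04 to 0.09), so the numbers were not taken as pairs.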

Additional observations from a re-analysis of the deposited data

Results flagged for a closer look

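In 3 of 26 groups of 6 values (levels of the 9 genes and the 4 log2 ratios, in control and in mimic) 1 library stood apart from the rest by Dixon's test at its 95% critical value, where chance alone gives about 1.3. Tet3 was 139.0 CPM in control replicate 1, with a gap of 0.736 of the group's range to the next library. Mbd2 was 25.2 CPM in control replicate 2, below the rest of its group by 0.710 of the range. The log2 ratio of Tet2 to Tet3 counts was -1.62 in mimic replicate 1, below the others by 0.671 of the range. The first 2 are the shallowest libraries of the series.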

How the results depend on the processing

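Uhrf1 (0.73 to 0.79), Tet1 (0.29 to 0.41), Tet3 (0.17 to 0.23) and Mbd2 (0.17 to 0.22) stayed higher with an adjusted p under 0.05, and Dnmt1 (-0.10 to -0.03) and Tet2 (0.01 to 0.09) stayed above it, in all 19 alternatives each. The replicate block, where the numbers do not pair the libraries, gave 1950 genes higher and 1709 lower in place of 2163 and 2019, and kept 4 members higher and 0 lower. Leaving out control replicates 1 and 2 together, an alternative chosen after seeing the data, called Dnmt3a (0.066) and gave 5 members higher, with 3058 genes higher and 2892 lower over all, and moved the ratio of Tet2 to Tet3 to -0.22 (exact permutation, adjusted p = 0.0190), that of Dnmt3b to Dnmt3a to 0.049 and Tdg to 0.011. With 1 library left out at a time Dnmt3b ranged from -0.027 to 0.14, Tdg from -0.036 to 0.057, E2f1 from -0.013 to 0.052, the ratio of Dnmt3b to Dnmt3a from -0.091 to 0.082 and that of Tet2 to Tet3 from -0.18 to -0.080. Dnmt3b to Dnmt3a was above 0 without control replicate 1 (0.02) or 5 (0.02) or mimic replicate 3 (0.082) or 4 (0.0036), and Tdg without control replicate 1 (0.0095), 2 (0.00061), 4 (0.02) or 5 (2.12e-05) or mimic replicate 3 (0.02) or 5 (0.057). E2f1 was -0.013 without control replicate 4. Tdg was 0.00082 with RLE scaling and 0.0013 with DESeq2. With the longest transcript as length the ranks were 3 for Dnmt1 and 2 for Mbd2 in mimic, 6 for Uhrf1 and 5 for Tet2 in control, 6 for Tet2 in mimic, and 7 for Tet1, 9 for Dnmt3b and 8 for Tdg in both groups. The cause of these shifts was not tested. Low counts limit Dnmt3b and Tdg.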

Other observations

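Dnmt3b was highest in replicate 1 and lowest in replicate 3 of the control group (2.12 and 1.37 CPM), and highest in replicate 1 and lowest in replicate 3 of the mimic group (2.28 and 1.25 CPM), although same-numbered libraries did not deviate together over all genes. Gadd45a, a stress protein linked to demethylation and on the study's list of predicted targets, was chosen after its values were seen and was at 2.67 ± 0.298 CPM (SD, n = 6) with the control and 2.11 ± 0.424 CPM (SD, n = 6) with the mimic. Its log2 difference of -0.32 did not pass the test (SE 0.13, edgeR adjusted p = 0.0837) at a mean of 70.7 counts.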
